A study of Mus musculus with 12 samples.

Results

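Mcam, melanoma cell adhesion molecule, was examined with 6 other cell adhesion molecules of the immunoglobulin type, Alcam, Ncam1, Vcam1, Icam1, Bcam and Thy1, in cultured mouse embryonic fibroblasts. The 7 genes were taken by symbol from a table of 26305 gene identifiers, and all 7 passed the filter on low counts that left 13499 genes for testing. Mcam was chosen by its measured rise with time, so that change is given as a description without a test. The other 6 were named as its relatives, and their changes with time were tested.

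Adhesion molecules of this superfamily carry extracellular immunoglobulin-type domains and hold cells to each other or to matrix. Mcam binds laminins that contain the Lama4 chain and also Wnt5a, and is known from pericytes, smooth muscle, endothelium and mesenchymal stromal cells. Ncam1 binds itself on neighbouring cells, Alcam binds itself and Cd6, Vcam1 is the ligand of integrins built on Itga4, Icam1 is the ligand of the leukocyte integrins with Itgb2, Bcam binds laminins with the Lama5 chain, and Thy1 is a lipid-anchored surface protein widely used as a fibroblast marker.

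The fibroblasts came from wild-type male C57BL/6 embryos at E13.5 and were grown in DMEM with 10% serum at 3% oxygen. RNA was sequenced from 4 groups of 3 biological replicates. These were cells in WM-2474 for 240 h, cells in the DMSO vehicle for 240 h, cells in WM-2474 for 96 h and cells in DMSO for 96 h. WM-2474 was used at 10 µM and is named by the submitters as an inactive control compound. No group at time 0 was analysed here, so each comparison over time sets 240 h against 96 h within 1 treatment, and hours in WM-2474 or DMSO are also hours in culture. The labels do not say whether replicates came from separate embryos, and the p-values set each difference against the spread between these samples.

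Library totals were 7313007 to 26019167 counts, with the lowest in replicates 1 and 2 of DMSO at 240 h. Those same libraries had 5.24 and 4.48 CPM (counts scaled to library size) of Xist, an RNA of the inactive X chromosome, against at most 0.924 CPM in the other 10 libraries, and the highest sums of 15 B-lineage markers, 48.7 and 43.3 CPM against 26.2 to 38.2 CPM elsewhere. For the members, some results that involve DMSO at 240 h are therefore also given without both libraries, as effect sizes. Such fits leave replicate 3 as the only DMSO library at 240 h and take the spread from the other groups. List, marker and locus results are given with all libraries. All 12 fibroblast markers were detected in every group, with summed levels of 32860 to 55390 CPM per library. Cldn5 and Sox17, defining markers of endothelium, were at 0 counts in all 12 libraries. In bulk RNA, fewer cells of a type and less RNA per cell cannot be told apart.

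Per kilobase of exon, Thy1 was the most abundant of the 7 transcripts in every group, and Mcam changed its place in the order. On the RPKM scale (CPM per kilobase), Thy1 averaged 950.1 ± 58.9 in WM-2474 at 240 h, 898 ± 23.7 in DMSO at 240 h, 622 ± 16.6 in WM-2474 at 96 h and 603 ± 23.2 in DMSO at 96 h (SD, n = 3 each, as for all group means here). Mcam averaged 114 ± 10.9, 115 ± 5.56, 34.4 ± 0.851 and 34.6 ± 0.388 RPKM in the same 4 groups. At 240 h the order of the mean levels was Thy1, Mcam, Vcam1 and Ncam1, whereas at 96 h it was Thy1, Vcam1, Mcam and Ncam1. Alcam, Icam1 and Bcam stood below these in every group, at group means of 1.83 to 7.86 RPKM. Neighbours in the order did not overlap between libraries, except Icam1 and Alcam in WM-2474 at 240 h.

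**Figure D1:**
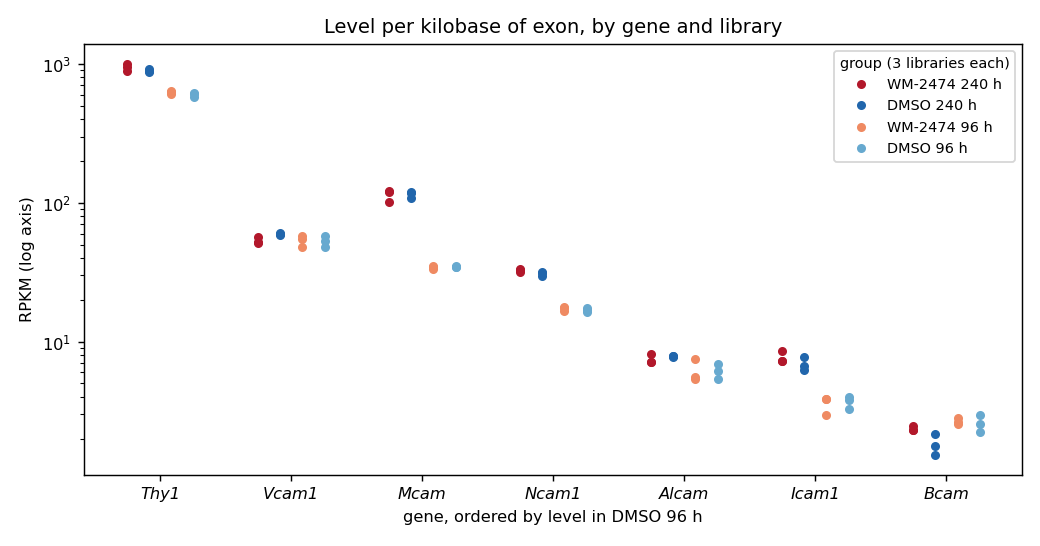
Level per length of the 7 adhesion molecules in the 4 groups, in RPKM on a log axis, with 1 point per library. Thy1 lies at the top throughout, and Mcam lies above Vcam1 at 240 h and below it at 96 h.

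Within single libraries, the ratio of Mcam to Vcam1 per length was 1.98 to 2.33 in WM-2474 at 240 h and 1.81 to 2.01 in DMSO at 240 h. At 96 h the same ratio was 0.613 to 0.702 in WM-2474 and 0.590 to 0.727 in DMSO. This ratio needs no scaling between libraries, and its ranges at 240 h and at 96 h lay apart in both treatments. Because Mcam was chosen for its rise with time, the ratio and the share below only describe that rise and do not test it. Mcam made up 9.80% of the summed RPKM of the 7 genes in WM-2474 at 240 h, 10.3% in DMSO at 240 h, 4.65% in WM-2474 at 96 h and 4.82% in DMSO at 96 h.

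Mcam (gene identifier 84004) lies on chromosome 9 from 44134658 to 44142727 on the plus strand of GRCm38. It had 294, 349 and 347 CPM in the WM-2474 libraries at 240 h, against 99.8, 96.8 and 102 CPM in those at 96 h. In DMSO it had 316, 339 and 346 CPM at 240 h, against 98.9, 101 and 101 CPM at 96 h. Every library at 240 h was above every library at 96 h, and the 96 h values lay within a few CPM of each other. The fitted log2 fold change of 240 h over 96 h was 1.73 ± 0.06 in WM-2474 and 1.74 ± 0.06 in DMSO (SE), a 3.32-fold and a 3.34-fold difference. These changes ranked 48 and 57 from the top of the 13499 genes, a place that reflects how Mcam was chosen. Without the 2 shallow DMSO libraries at 240 h, the log2 change in DMSO was 1.79.

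**Figure D2:**
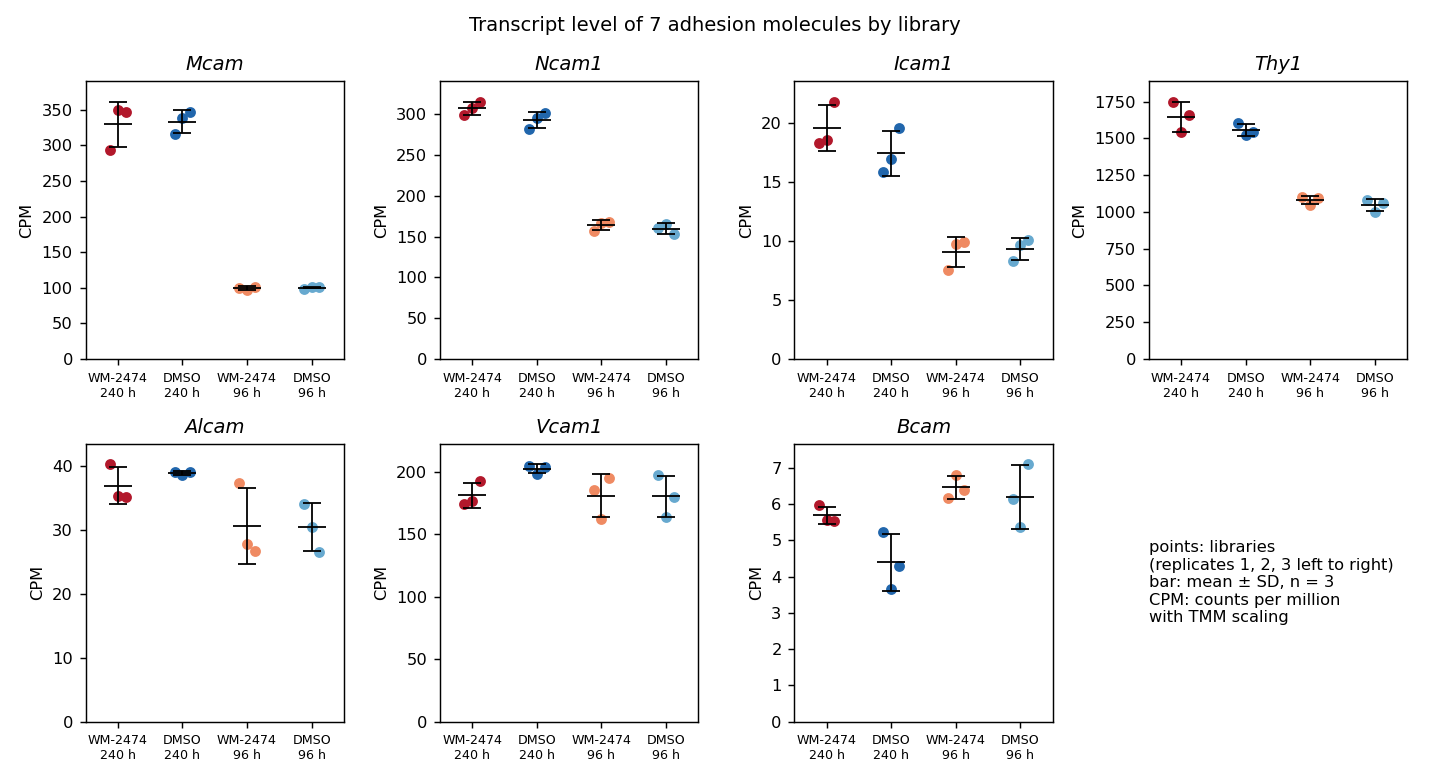
TMM-scaled CPM of each adhesion molecule, with 1 panel per gene, 1 point per library and the group mean ± SD. Mcam, Ncam1, Icam1 and Thy1 are higher in all libraries at 240 h than in those at 96 h, while Vcam1 in WM-2474 is level, with means of 181 CPM at both times.

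Upstream of the RefSeq start of Mcam, 2 stretches of 30 bases hold motif matches in a GC-rich promoter window. The window has 73.6% G and C and no TATAAA. GENCODE starts Mcam at 44134469, so both stretches lie past that start. They are shown, from RefSeq on GRCm38.p6, because Mcam had the largest fold change with time among the members. Capitals mark a palindrome of the cyclic AMP response element, TGACGTCA, in the first and GGGCGG, the GC box, in the other.
Mcam chr9:44134618-44134647, plus strand: ccccgccccccTGACGTCAgcccccgacag
Mcam chr9:44134564-44134593, plus strand: ggaggGGGCGGggggctacgcgGGGCGGgg
Of 32851 RefSeq promoter windows of 250 bases upstream, 1.55% hold TGACGTCA on either strand, 32.7% hold GGGCGG and 12.4% hold TATAAA. The whole Mcam window holds 5 matches to GGGCGG on either strand. These motifs were chosen with the expression values known, and a match describes letters only.

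Ncam1, the homophilic neural cell adhesion molecule, and Thy1 rose with time in both treatments. Ncam1 (17967, chromosome 9 from 49502129 to 49799393, minus strand) had 299, 308 and 315 CPM in WM-2474 at 240 h, against 157, 166 and 168 CPM at 96 h. The DMSO libraries had 282, 296 and 301 CPM at 240 h, against 160, 166 and 153 CPM at 96 h. All libraries at 240 h lay above all at 96 h. The log2 change was 0.91 ± 0.05 in WM-2474 and 0.88 ± 0.05 in DMSO, with adjusted p = 6.45e-14 and 1.05e-13 (edgeR quasi-likelihood test, Benjamini-Hochberg). The annotated span of Ncam1 also holds the lncRNA Gm11149, which had 51 counts in all libraries together.

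Thy1 (21838, chromosome 9 from 44043384 to 44048579, plus strand) had 1745, 1541 and 1659 CPM in WM-2474 at 240 h, against 1099, 1047 and 1094 CPM at 96 h. In DMSO it had 1604, 1524 and 1547 CPM at 240 h, against 1078, 1001 and 1059 CPM at 96 h. The lowest library at 240 h, at 1524 CPM, was above the highest at 96 h, at 1099 CPM. Its log2 changes, 0.61 ± 0.05 in WM-2474 and 0.57 ± 0.05 in DMSO, passed edgeR's test with adjusted p = 1.38e-10 and 4.35e-10. Thy1 differed by more CPM between the times than any other member, although its fold changes, 1.53 in WM-2474 and 1.49 in DMSO, were smaller than those of Ncam1, 1.88 and 1.84.

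Icam1 and Vcam1, the ligands of leukocyte integrins that inflammatory signals induce in many cells, did not follow the same course. Icam1 (15894, chromosome 9 from 21015940 to 21028814, plus strand) was low but rose in both treatments. It had 18.3, 18.6 and 21.8 CPM in WM-2474 at 240 h, against 7.57, 9.74 and 9.89 CPM at 96 h. Its levels in DMSO were 15.9, 17 and 19.6 CPM at 240 h, against 8.31, 9.66 and 10.1 CPM at 96 h. No library at 96 h reached the level of any at 240 h. The log2 change was 1.12 ± 0.12 in WM-2474 (2.17-fold, edgeR adjusted p = 8.37e-08) and 0.94 ± 0.12 in DMSO (1.92-fold, edgeR adjusted p = 8.90e-07).

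Vcam1 (22329, chromosome 3 from 116110020 to 116129688, minus strand) had 174, 176 and 192 CPM in WM-2474 at 240 h, against 185, 162 and 195 CPM at 96 h. In DMSO there were 205, 198 and 204 CPM at 240 h, against 197, 164 and 180 CPM at 96 h. The WM-2474 libraries of both times overlapped, and the DMSO libraries at 240 h lay just above those at 96 h. The log2 change was -0.00061 ± 0.07 in WM-2474 (95% interval -0.14 to 0.14, edgeR adjusted p = 0.996). In DMSO it was 0.16 ± 0.07 (0.03 to 0.30, edgeR adjusted p = 0.0619), short of the threshold of 0.05. Without both shallow DMSO libraries at 240 h the log2 change in DMSO was 0.18.

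The upstream window of Icam1 is shown whole because NF-kappaB, which binds sites of the form GGNNNTTCC, is the factor best known to act there. Capitals mark its 2 matches, at 153 and 84 bases before the start. The first reads as a match on both strands and the other on the minus strand only.
Icam1 chr9:21015690-21015939, plus strand: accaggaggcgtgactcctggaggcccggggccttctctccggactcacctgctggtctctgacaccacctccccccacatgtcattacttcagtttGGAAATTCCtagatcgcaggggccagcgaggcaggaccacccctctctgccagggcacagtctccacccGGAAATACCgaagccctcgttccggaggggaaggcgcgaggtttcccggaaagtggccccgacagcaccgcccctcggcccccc
The motif occurs in 15.7% of the 32851 windows, and in none of the windows of Mcam, Alcam and Bcam. Windows were matched for 4 of the 7 members, and those of Vcam1, Ncam1 and Thy1 were not examined. Of 24 listed NF-kappaB subunits and targets, 20 were tested. In WM-2474 3 rose with time and 5 fell, and in DMSO 3 rose and 5 fell. Of all tested genes, 15.9% were higher and 14.8% lower in WM-2474, and 17.5% and 17.3% in DMSO. The same 3 rose in both, the chemokine Ccl7, the feedback inhibitor Tnfaip3 and the prostaglandin synthase Ptgs2, and 4 fell in both, Cxcl1, Cxcl5, Bcl3 and Irf1. Cxcl5, a neutrophil chemokine, averaged 7.94 ± 3.44 CPM in WM-2474 at 240 h, against 28.4 ± 8.42 CPM at 96 h, and 6.02 ± 1.18 CPM in DMSO at 240 h, against 26.9 ± 5.73 CPM at 96 h. The median log2 change of the list was 0.01 in WM-2474 and -0.0037 in DMSO, beside -0.0039 and -0.0064 over all tested genes.

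Alcam, the partner of Cd6, and the laminin receptor Bcam changed less, and their calls were less stable. Alcam (11658, chromosome 16 from 52248996 to 52453081, minus strand) had 40.3, 35.3 and 35.2 CPM in WM-2474 at 240 h, against 37.5, 27.8 and 26.8 CPM at 96 h. The DMSO values were 39.2, 38.7 and 39.1 CPM at 240 h, against 34.1, 30.5 and 26.6 CPM at 96 h. Replicate 1 was the highest at 96 h in both treatments, and in WM-2474 it overlapped the 240 h libraries. The log2 change was 0.25 ± 0.11 in WM-2474 (edgeR adjusted p = 0.103) and 0.35 ± 0.11 in DMSO (edgeR adjusted p = 0.0209). Without the 2 shallow libraries, with replicate 3 as the only DMSO library at 240 h, the log2 change in DMSO was 0.36. The DMSO call was lost with scaling by library totals (0.23, edgeR adjusted p = 0.133). It was also lost when any 1 of the 3 DMSO libraries at 240 h, or replicate 2 or 3 of DMSO at 96 h, was left out, at log2 changes of 0.26 to 0.36. In WM-2474, leaving out replicate 1 at 96 h gave 0.43 with adjusted p = 0.00133.

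Bcam (57278, chromosome 7 from 19756138 to 19770532, minus strand) was the scarcest member, with 27 to 107 counts per library. It had 5.96, 5.56 and 5.55 CPM in WM-2474 at 240 h, against 6.18, 6.8 and 6.4 CPM at 96 h. Under DMSO it had 5.24, 3.67 and 4.29 CPM at 240 h, against 6.13, 5.36 and 7.1 CPM at 96 h. The libraries at 240 h lay below those at 96 h in both treatments, by little in WM-2474. The log2 change was -0.18 ± 0.15 in WM-2474 (edgeR adjusted p = 0.404) and -0.51 ± 0.16 in DMSO (edgeR adjusted p = 0.0126). The DMSO fall lost its call under DESeq2 (-0.51, adjusted p = 0.0509). In edgeR the call was also lost without replicate 3 of DMSO at 240 h (adjusted p = 0.082) or at 96 h (adjusted p = 0.0777). Without the 2 shallow libraries, with replicate 3 as the only DMSO library at 240 h, the log2 change was -0.53.

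Counted together, 3 of the 6 tested members rose with time in WM-2474, 0 fell and 3 were not called, where 30.7% of all tested genes were called, 15.9% as higher and 14.8% as lower. In DMSO 4 rose, 1 fell and 1 was not called, where 34.8% of all tested genes were called, 17.5% as higher and 17.3% as lower. Ncam1, Icam1 and Thy1 rose in both. Without the 2 shallow libraries, with replicate 3 as the only DMSO library at 240 h, their log2 changes in DMSO were 0.92, 1.07 and 0.57. The 2 sets of calls come from separate libraries at both times, but they share 1 estimate of the spread. Same-numbered libraries of the 2 treatments also deviated together at 96 h. The members were chosen with earlier results of these data known, and nothing is read from their share. The median log2 change of the 6 was 0.43 in WM-2474 and 0.46 in DMSO. Libraries at 240 h lay wholly above those at 96 h for 3 members and wholly below for 1 in WM-2474, and above for 5 and below for 1 in DMSO. Over all tested genes 21.2% lay wholly above and 21.2% wholly below in WM-2474, and 22.9% and 22.8% in DMSO.

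**Figure D3:**
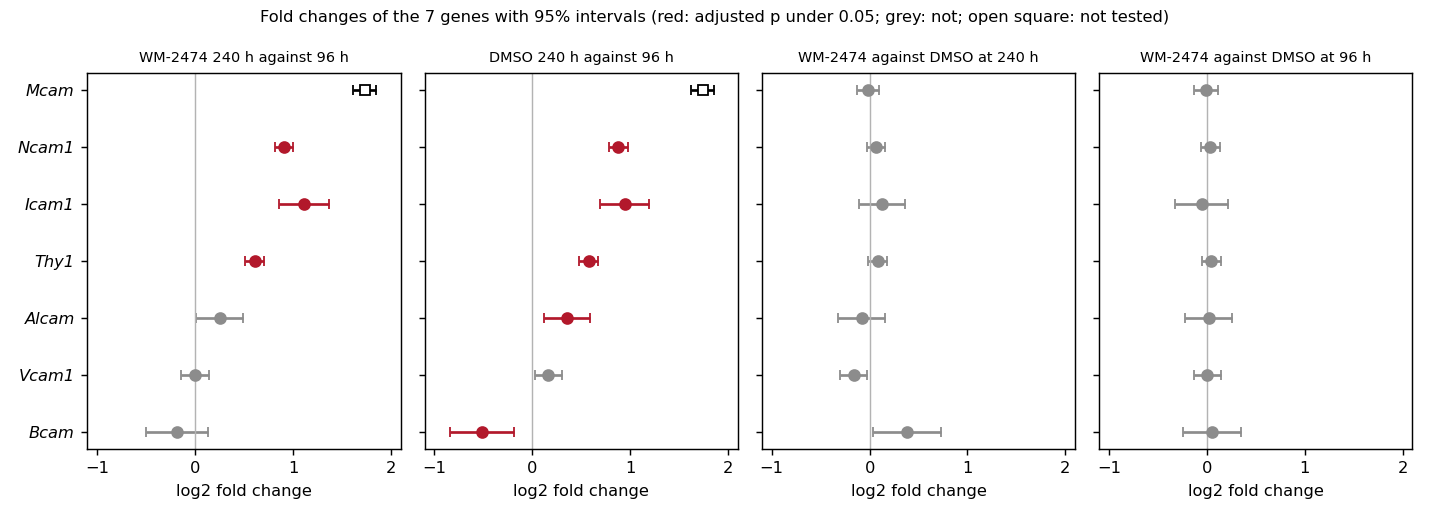
Log2 fold changes of the 7 adhesion molecules with their 95% intervals, 1 panel per comparison. The intervals of WM-2474 against DMSO at 96 h all include 0, whereas over time Mcam lies at 1.73 and 1.74 and Vcam1 at 0.16 or below.

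No difference in these molecules between WM-2474 and DMSO passed the test at either time. At 240 h, 0 of the 7 passed the test, where 0.0296% of all tested genes did (4 genes, all higher). For Mcam the log2 difference of WM-2474 over DMSO was -0.02, with a 95% interval of -0.13 to 0.09 (edgeR adjusted p = 0.958). For Ncam1 it was 0.07 (-0.03 to 0.16), for Thy1 0.08 (-0.02 to 0.18), for Icam1 0.12 (-0.11 to 0.36) and for Alcam -0.08 (-0.32 to 0.16). For Vcam1 all 3 WM-2474 libraries at 240 h, at 174 to 192 CPM, lay below all 3 DMSO libraries, at 198 to 205 CPM. The log2 difference was -0.16 ± 0.07 (95% interval -0.30 to -0.02) with edgeR adjusted p = 0.553. For Bcam all 3 WM-2474 libraries, at 5.55 to 5.96 CPM, lay above the DMSO libraries, at 3.67 to 5.24 CPM, with a log2 difference of 0.38 ± 0.17 (0.04 to 0.73) and edgeR adjusted p = 0.571. The WM-2474 libraries stood wholly above for 7.59% of all tested genes and wholly below for 6.7%. Without the 2 shallow DMSO libraries, the differences were -0.17 for Vcam1, 0.40 for Bcam, -0.07 for Mcam and -0.0055 for Icam1.

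At 96 h, 0 of the 7 passed the test and 0 of all tested genes did, and the libraries of both treatments overlapped for all 7. With same-numbered libraries paired, the count over all genes was 0 in a fit of all 12 libraries and 3 in a fit of only the 96 h libraries, with 0 members called in either. Over all tested genes, WM-2474 stood wholly above for 3.62% and wholly below for 3.84%. The log2 difference of WM-2474 over DMSO was -0.01 for Mcam (95% interval -0.13 to 0.11), 0.04 for Ncam1 and 0.05 for Thy1. It was -0.05 for Icam1, 0.0026 for Vcam1, 0.02 for Alcam and 0.05 for Bcam, all with edgeR adjusted p = 1. Before adjustment, edgeR gave 1099 genes a p under 0.05 at 240 h and 283 at 96 h, DESeq2 697 and 109, and limma-voom 1089 and 320. DESeq2 called 11 genes at 240 h and 0 at 96 h, and limma-voom 2 and 0.

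The change with time was also compared between treatments as an interaction. The log2 change in WM-2474 minus that in DMSO was -0.01 for Mcam, with a 95% interval of -0.17 to 0.16 (edgeR adjusted p = 0.997). It was -0.16 (-0.36 to 0.03) for Vcam1 and 0.33 (-0.12 to 0.78) for Bcam, both with edgeR adjusted p = 0.977. Of all tested genes 0 were called for this difference, and 0 by DESeq2 or limma-voom. Before adjustment, p under 0.05 was given to 625 genes by edgeR, 297 by DESeq2 and 622 by limma-voom. The calls for Alcam and Bcam in DMSO alone therefore do not show that the treatments differed.

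Other adhesion molecules of the superfamily were listed for comparison, 66 in all, of which 38 were tested. In WM-2474 5 rose with time and 14 fell, with a median log2 change of -0.21, and in DMSO 4 rose and 13 fell, with a median of -0.16. Over all tested genes 15.9% were higher and 14.8% lower in WM-2474, and 17.5% and 17.3% in DMSO. In both treatments 3 rose, Nptn, Nectin3 and Jam2, and 11 fell. Nptn, neuroplastin, averaged 391 ± 13.4 CPM in WM-2474 at 240 h, against 307 ± 12.6 CPM at 96 h, a log2 change of 0.35 (edgeR adjusted p = 8.04e-07), and changed by 0.32 in DMSO. Among those that fell, Sdk1, a homophilic molecule of synapses, changed by -0.71 in WM-2474 and -1.14 in DMSO, and Cxadr, the coxsackievirus and adenovirus receptor, by -0.78 and -0.84. Emb, embigin, averaged 33 ± 4.37 CPM in WM-2474 at 240 h, against 54.8 ± 4.77 CPM at 96 h, a change of -0.74, and changed by -0.60 in DMSO. Between WM-2474 and DMSO 0 of the 38 passed at either time. The smallest p at 240 h was that of Bsg, basigin, with a log2 difference of 0.16 ± 0.05 and edgeR adjusted p = 0.412.

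Of 31 listed binding partners and regulators of the 7, 25 were tested, of which 12 rose and 5 fell in WM-2474 and 13 rose and 5 fell in DMSO, with median log2 changes of 0.26 and 0.24. The shares over all tested genes were 15.9% higher and 14.8% lower in WM-2474, and 17.5% and 17.3% in DMSO. The same 12 rose and the same 5 fell in both. Itgb1, the common beta chain of laminin- and Vcam1-binding integrins, averaged 2901 ± 266 CPM in WM-2474 at 240 h, against 1714 ± 36 CPM at 96 h, a log2 change of 0.76 (edgeR adjusted p = 2.36e-09). Its change in DMSO was 0.83. Cav1, caveolin, changed by 0.81 in WM-2474 and 0.87 in DMSO, and Itgb3, a partner of Thy1, by 0.81 and 0.69.

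Among the partners that fell, Lgals3, a galectin that binds Mcam, averaged 110 ± 7.78 CPM in WM-2474 at 240 h, against 171 ± 13.3 CPM at 96 h, a log2 change of -0.64, and changed by -0.69 in DMSO. Itgb7, a beta chain of an integrin that binds Vcam1, and Kdr, the endothelial growth factor receptor known to associate with Mcam, were low, at group means of 0.762 to 3.85 CPM. Some specific ligands are named after their values were seen. Lama4 changed by 0.80 in WM-2474 and 0.70 in DMSO, Wnt5a by 0.41 in both, and Itga4 by 0.57 and 0.66, all past the threshold. Lama5, the laminin chain bound by Bcam, changed by 0.50 in WM-2474 and 0.39 in DMSO without a call. The leukocyte partners Itgal, Itgam, Itgax, Itgb2 and Cd6 had 0 to 8 counts in any library and were not tested.

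**Figure D4:**
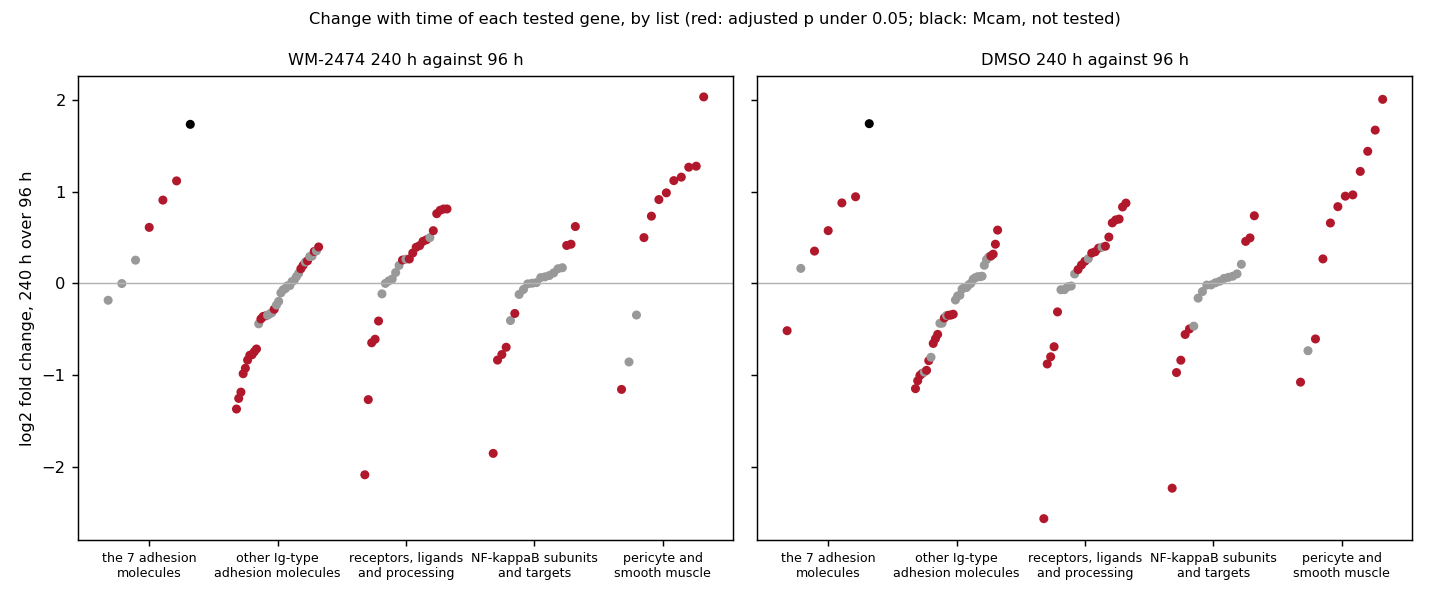
Log2 change of 240 h over 96 h for each tested gene of the adhesion, partner, NF-kappaB and pericyte lists, in WM-2474 and in DMSO. The median of the pericyte and smooth muscle markers is 0.95 in WM-2474 and 0.89 in DMSO, and that of the other adhesion molecules is below 0 in both.

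Among markers of pericytes and smooth muscle, cells in which Mcam is well known, most rose with time and a few fell. Of 13 listed, 12 were tested. In WM-2474 9 rose and 1 fell, beside 15.9% higher and 14.8% lower over all tested genes, and in DMSO 9 rose and 2 fell, beside 17.5% and 17.3%. The same 9 rose in both treatments. Among these 9 were Rgs5, Cspg4 and Notch3, with log2 changes of 1.16, 0.73 and 1.12 in WM-2474. Their changes in DMSO were 1.67, 0.66 and 0.96. The pericyte channel subunit genes Kcnj8 and Abcc9 went the other way. Rgs5, Kcnj8 and Abcc9 were low, at group means of 0.69 to 2.62 CPM. Kcnj8 had log2 changes of -0.85 in WM-2474 (edgeR adjusted p = 0.0744) and -1.07 in DMSO (edgeR adjusted p = 0.0147), and Abcc9 of -1.15 (edgeR adjusted p = 0.00652) and -0.73 (edgeR adjusted p = 0.0633). Anpep, an aminopeptidase, had -0.34 in WM-2474 (edgeR adjusted p = 0.203) and -0.60 in DMSO (edgeR adjusted p = 0.0300). Rgs5, Cspg4, Notch3, Kcnj8, Abcc9 and Anpep were named after their values were seen. The summed level of the 13 was 9603 to 9887 CPM in WM-2474 at 240 h, against 4796 to 5147 CPM at 96 h. In DMSO it was 8798 to 10030 CPM at 240 h, against 4829 to 5079 CPM at 96 h. Acta2 and Tagln made up most of these sums. Acta2, smooth muscle actin, averaged 5699 ± 115 CPM in WM-2474 at 240 h, against 2878 ± 120 CPM at 96 h. Tagln averaged 2770 ± 160 CPM and 1471 ± 33.3 CPM in the same groups. Myh11, a smooth muscle myosin, changed by 2.03 in WM-2474 and 2.00 in DMSO on the log2 scale. Higd1b, a pericyte marker, was at 0 counts in every library. All 12 fibroblast markers were tested. In WM-2474 7 rose and 1 fell, and in DMSO 6 rose and 1 fell, beside the shares given above for all tested genes. In both treatments 6 rose and 1 fell. The fibroblast markers summed to 53640 to 55390 CPM in WM-2474 at 240 h, against 32860 to 38300 CPM at 96 h. In DMSO they summed to 51190 to 52320 CPM at 240 h, against 33370 to 38480 CPM at 96 h.

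Endothelial markers, 10 listed and 5 tested, summed to 122 to 176 CPM in WM-2474 at 240 h, against 73.6 to 84.9 CPM at 96 h, and to 137 to 165 CPM in DMSO at 240 h, against 76.6 to 86 CPM at 96 h. Of the 5 tested, 2 rose and 1 fell in WM-2474, with a median log2 change of 0.30. In DMSO 2 rose and 0 fell, with a median of -0.33. Over all tested genes 15.9% were higher and 14.8% lower in WM-2474, and 17.5% and 17.3% in DMSO. The 2 that rose were Ptprb and Flt1 in both treatments, and they made up most of these sums. Epithelial and mesothelial markers, 10 in all, of which Krt19, Msln and Krt8 fell in both treatments, summed to 19.1 to 23.6 CPM in WM-2474 at 240 h, against 45.8 to 67 CPM at 96 h, and to 18.5 to 19.7 CPM in DMSO at 240 h, against 46.4 to 61.9 CPM at 96 h. The part of a change in cell makeup in the levels of Mcam, Ncam1, Icam1 and Thy1 was not tested.

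Mcam, Ncam1, Icam1 and Thy1, 4 of the 7, lie on chromosome 9, which holds 5.53% of the tested genes. The starts of Thy1 and Mcam are 91.3 kb apart. Within 250 kb of the Mcam start, 15 other genes were tested, of which 5 rose and 4 fell with time in WM-2474 and 4 rose and 3 fell in DMSO. The share called over all tested genes was 30.7% in WM-2474 and 34.8% in DMSO. Their median log2 change was -0.09 in WM-2474 and -0.02 in DMSO. Cbl, the ubiquitin ligase gene just downstream, changed by 0.30 in WM-2474 and 0.32 in DMSO, and H2ax, a histone variant gene, by -0.51 and -0.64.

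The nearest gene, Gm10687 (100038560), is annotated by GENCODE as an antisense RNA on the minus strand, on chromosome 9 from 44122186 to 44134485 of GRCm38, and reaches past the Mcam start of GENCODE at 44134469. It had 14, 27 and 17 counts in WM-2474 at 240 h, against 6, 11 and 5 counts at 96 h. The DMSO libraries held 22, 20 and 64 counts at 240 h, against 8, 7 and 9 counts at 96 h. Its log2 change was 1.69 in WM-2474 (edgeR adjusted p = 5.09e-04) and 2.23 in DMSO (edgeR adjusted p = 3.53e-06). The spans meet only in GENCODE. In RefSeq, whose identifiers the counts carry, Gm10687 ends at 44134485 and Mcam starts at 44134658. The kit marks strand, but the annotation and strand setting of the counting are not given in the sources used, so the counts of Gm10687 are uncertain.

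**Figure D5:**
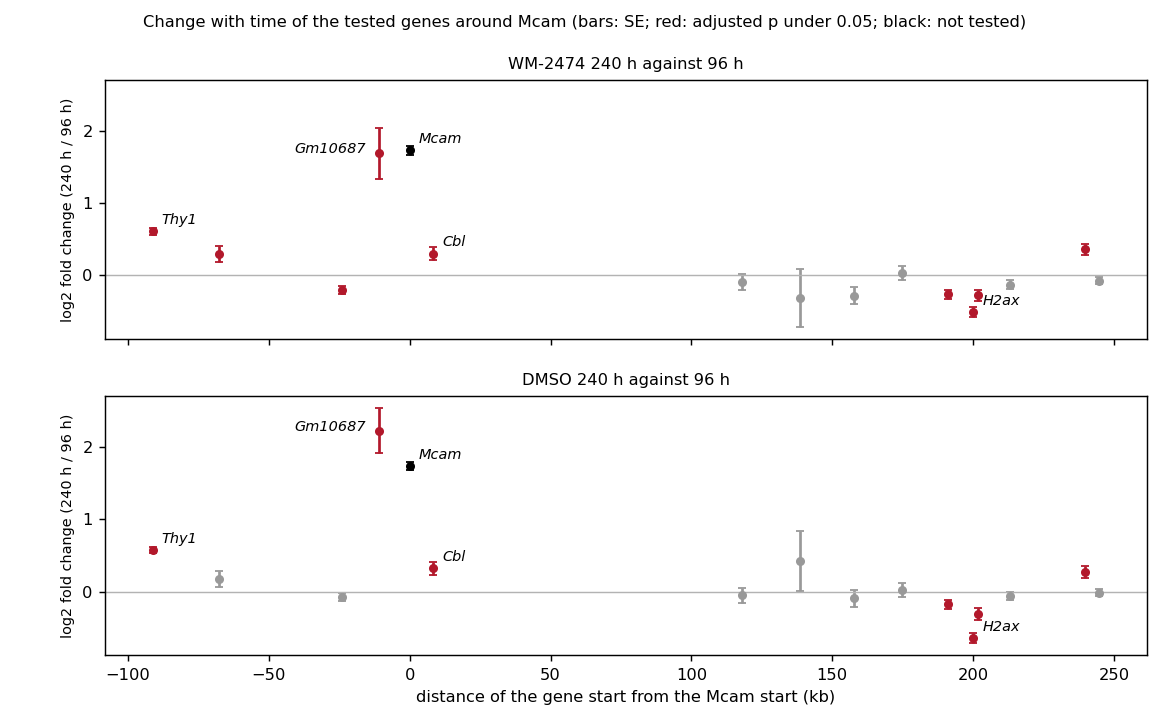
Log2 change of 240 h over 96 h with its SE for the tested genes within 250 kb of the Mcam start, by distance of the gene's lowest coordinate in kb, in WM-2474 (top) and DMSO (bottom). Mcam and Gm10687 stand highest in both panels, and most genes farther off lie near 0.

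Across the 12 libraries, which separate by time, log2 CPM of Mcam ran most closely with Ncam1 (Pearson r = 0.994), Thy1 (0.969) and Icam1 (0.963) among the members. The coefficients with Alcam, Vcam1 and Bcam were 0.736, 0.408 and -0.678. Of 12418 genes with a group mean of at least 1 CPM everywhere, the 3 most like Mcam were Loxl2 (0.998), a lysyl oxidase that acts on collagen, Ccn4 (0.998), a matricellular protein, and Lamb1 (0.997), a laminin chain. Those most like Ncam1 were Thbs1, Lmod1 and Lurap1l, those most like Thy1 were Itga8, Tmbim1 and Lbh, and those most like Icam1 were Jup, Serpinh1 and Igfbp7. Loxl2 averaged 1370.0 ± 112 CPM in WM-2474 at 240 h, against 579 ± 9.74 CPM at 96 h, and 1318 ± 50.6 CPM in DMSO at 240 h, against 575 ± 8.93 CPM at 96 h. For Vcam1 the closest gene was Tm4sf1 (0.935), for Alcam Ctsl (0.924) and for Bcam Zfp628 (0.976). These coefficients are descriptions over libraries that share 2 times and 2 treatments.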

How the data were processed

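RNA-seq libraries from 12 cultures, 3 per group, were analysed from the authors' deposited table of raw counts per gene with exon lengths. Per the submitters' processing notes, featureCounts and mm10 were used. The versions, the aligner and the counting settings are not given in the sources used here. Of 27179 entries, 874 without an identifier were left out (0.547 to 0.648% of counts). GRCm38.p6 names matched 96.1% of 26305 identifiers. Genes were filtered with filterByExpr, scaled by TMM and fitted with edgeR 4.0.16 (R 4.3.3), glmQLFit robust over all 12 libraries with 1 coefficient per group. P-values were two-sided and Benjamini-Hochberg adjusted over 13499 genes, with a threshold of 0.05. The common biological coefficient of variation was 5.22%. CPM use TMM-scaled totals, RPKM the deposited lengths, and log2 CPM a prior count of 2. The floor was 3 counts, and intervals are 95%.

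The members and gene lists were chosen with earlier results of these data known. From each list, up to 3 rising and 3 falling genes with the smallest p in the average of the time contrasts could be named, and 3 genes by likeness per member. Same-numbered libraries deviated together at 96 h (r = 0.301, 0.235 and 0.191), where different numbers gave -0.186 to -0.0458. At 240 h the r of same-numbered libraries was lower (0.0971, 0.114 and 0.0397), where different numbers gave -0.114 to 0.0231. Across times it was 0.0557 to 0.132 in DMSO, where different numbers gave -0.0804 to -0.0164. In WM-2474 it was -0.00783 to 0.0804, where different numbers gave -0.0818 to 0.0113. The main fit had no replicate block. Blocking by number at 96 h called no member. Pairs of replicates differed beyond sampling noise (chi-square per degree of freedom 2.05 to 5.25). The procedure was tested on simulated data. Alternatives were DESeq2 1.42.0, limma-voom 3.58.1, RLE factors, no filter, replicate blocks, only the libraries compared and omission of libraries. Library totals in place of TMM were added after seeing the data.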

Additional observations from a re-analysis of the deposited data

How the results depend on the processing

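Values were recomputed under 21 alternatives, and those of the interaction under 19, since fits of only the libraries compared were not run for it. Mcam over time stayed at log2 changes of 1.60 to 1.81 in WM-2474 and 1.62 to 1.79 in DMSO. The calls of Ncam1, Icam1 and Thy1 over time held under every alternative that kept at least 2 libraries per group. The count of the 6 members called in DMSO over time was 5. It was 3 to 6 when single libraries were left out (3 without replicate 3 of DMSO at 240 h or at 96 h). In WM-2474 it was 3, and 3 to 4 with single libraries left out. With a replicate block it was 4 in WM-2474 (Alcam added, 0.27, adjusted p = 0.0128) and 6 in DMSO (Vcam1 added, 0.16, adjusted p = 0.0172). Same-numbered libraries deviated together most at 96 h, and only weakly across times (r of at most 0.132). In DMSO their r across times still lay above those of different numbers, which were at most -0.0164. Vcam1 in DMSO also passed without the filter (adjusted p = 0.02), in a fit of only the libraries compared (0.024) and without replicate 1 of DMSO at 96 h (0.23, adjusted p = 0.00582), as well as without replicate 2 or 3 of WM-2474 at 96 h. Alcam in WM-2474 passed without the filter (0.25, adjusted p = 0.0448). No member was called between treatments or for the interaction under the alternatives run for each, but DESeq2 gave no adjusted p to 3 members at 240 h (Alcam, Icam1 and Bcam). Over all genes at 240 h, 4 were called, against 15 in a fit of only the libraries compared and 7 and 91 with the replicate block over all libraries and over those compared. Library totals in place of TMM moved the median of all genes to -0.14 in WM-2474 and -0.13 in DMSO over time.

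Values near 0 changed sign. Vcam1 over time in WM-2474 was 0.00026 with RLE factors, 0.00065 in DESeq2, 0.0012 in limma-voom, 0.0049 with the replicate block over all libraries, 0.0018 with the block over those compared, 0.0015 without the shallow libraries and -0.074 to 0.052 with single libraries left out. Without the shallow libraries, Icam1 between treatments at 240 h was -0.0055 and the interaction of Ncam1 -0.0073. With single libraries left out, Mcam between treatments was -0.061 to 0.060 at 240 h and -0.026 to 0.0061 at 96 h. At 96 h Alcam was -0.16 to 0.12, Vcam1 -0.061 to 0.073, Icam1 -0.14 to 0.078 and Bcam -0.031 to 0.15. The interaction was -0.051 to 0.070 for Mcam, -0.20 to 0.080 for Alcam, -0.0023 to 0.059 for Ncam1 and -0.0068 to 0.082 for Thy1. The cause was not tested. Low counts limit Bcam and Gm10687 most, and 3 libraries per group limit every comparison.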
